A study of Mus musculus with 32 samples.

Results

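Glucose breakdown and the response to low oxygen were followed through 39 genes in mouse regulatory T cells (Tregs), a class of CD4 T cells marked by Foxp3 that keeps immune responses in check. The genes were taken by symbol as a list of glucose transporters, glycolytic and lactate enzymes, their regulators, HIF-1 alpha with its hydroxylases, hypoxia response genes and the brakes Txnip and Ddit4. All 39 of 39 were found among the 54087 genes of each of 32 libraries, and all 39 were among the 14313 genes with enough counts to test. No measured value was used to choose them, but the list was drawn up with earlier results of these data known.

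The libraries were made from total RNA of Foxp3-GFP+ Tregs purified from C57BL/6 mice with a Foxp3-IRES-GFP knock-in, 2.5 months of age, and all groups share that strain and knock-in. Resting Tregs (3 libraries) were not cultured. All other Tregs spent 18 h or 36 h in wells coated with anti-CD3 plus anti-CD28, in medium holding 10 ng/ml mouse IL-2, either with 1 of 4 agonists of TNF receptor family members or with none. TNFR2 was engaged by 12 ng/ml of TNC-sc(mu)TNF80 (STAR2), 4-1BB by 10 µg/ml of the antibody 3H3, DR3 by 12 ng/ml of TL1A and OX40 by 100 ng/ml of OX40L, so doses were not matched between agonists. Controls were stimulated in the same way without an agonist. There were 2 libraries of the OX40 agonist at 18 h and 3 of every other group, and these numbers are the n of every mean, SD and test given here. No group was cultured without stimulation, so against resting cells the parts of stimulation, IL-2, culture and time cannot be told apart. The labels do not say whether libraries of a group came from separate mice or cultures, so p-values measure the spread between these libraries only.

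Glycolysis splits glucose into pyruvate in the cytosol, and cells that make much lactate reduce that pyruvate with lactate dehydrogenase and export the product through monocarboxylate transporters. HIF-1 is a transcription factor whose alpha subunit is marked for destruction by prolyl hydroxylases when oxygen is plentiful, and its targets include most of these enzymes as well as genes of mitochondrial clearance, vessel growth and pH balance. T cells are known to raise glycolysis when they are stimulated, also in the presence of oxygen, and in Tregs the extent of that rise is tied to growth and to suppressive function.

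The genes with the largest time effect are introduced by the DNA upstream of their starts, because HIF-1 binds a short core there, ACGTG or GCGTG. The windows below are 100 bases each, printed 5′ to 3′ on the strand of the gene, from RefSeq on GRCm38.p6 (mm10), and capitals mark every ACGTG or GCGTG and its reverse complement. They belong to the 5 called genes with the largest change between control cultures at 36 h and 18 h that had a match upstream of their 5′-most RefSeq start, in a window free of annotated exons; Vegfa was passed over because it had no such window.
Bnip3 (chr7:138909524-138909623, minus strand, 117 to 18 bases upstream): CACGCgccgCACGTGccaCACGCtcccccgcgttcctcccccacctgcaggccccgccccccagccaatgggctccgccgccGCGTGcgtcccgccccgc
Slc16a3 (chr11:120948953-120949052, plus strand, 114 to 15 bases upstream): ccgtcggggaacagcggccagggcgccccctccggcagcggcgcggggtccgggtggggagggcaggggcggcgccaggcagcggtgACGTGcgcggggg
Egln3 (chr12:54204004-54204103, minus strand, 229 to 130 bases upstream): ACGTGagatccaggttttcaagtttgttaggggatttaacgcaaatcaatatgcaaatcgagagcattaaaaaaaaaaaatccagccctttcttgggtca
Ak4 (chr4:101419177-101419276, plus strand, 112 to 13 bases upstream): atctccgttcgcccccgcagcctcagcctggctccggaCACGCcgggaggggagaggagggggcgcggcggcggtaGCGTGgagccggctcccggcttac
Ddit4 (chr10:59951858-59951957, minus strand, 187 to 88 bases upstream): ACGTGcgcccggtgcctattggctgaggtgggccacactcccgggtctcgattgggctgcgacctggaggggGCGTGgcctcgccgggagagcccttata

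Each window was placed where it held the most matches clear of annotated exons within 250 bases upstream, so the counts in the windows reflect that choice. The Bnip3 window held 5 matches, and those of Ak4 and Ddit4 held 2 each, while those of Slc16a3 and Egln3 held 1 each. Slc16a3 had 2 matches within the 250 bases. The Slc16a3 window is upstream of the RefSeq start used, but inside the gene as GENCODE M21 annotates it, from chr11:120948480 onwards. A pair of the Bnip3 matches are the strands of a single CACGTG, the E-box that MYC family proteins read, so the E-box and core counts overlap there. RefSeq promoters were matched for 36 of the 39 genes; Slc2a3, Ndrg1 and Bnip3l had none in the table used. Of the 36, 28 (77.8%) held the core on either strand within 250 bases upstream, against 57.9% of the 9156 tested genes with a promoter and 38.6% of all 27025 promoters. CACGTG was found in 5 of the 36 (13.9%), against 8.55% of promoters of tested genes. A match is a string of letters in this window and shows no binding.

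Libraries held 11880270 to 38083925 expected counts in all. The Treg markers Foxp3, Il2ra, Ctla4, Ikzf2, Ikzf4, Tnfrsf18, Cd4 and Cd3e were detected in every group, with a summed level of 6455 to 6502 CPM (read counts relative to TMM-scaled library size) in controls at 18 h, 5350 to 5485 CPM in controls at 36 h and 3777 to 3997 CPM in resting cells. Marker lists of other cells had lower sums, which also differed between groups. The 6 B cell markers were highest in resting cells, where they summed to between 712 and 754 CPM; control cultures held 293 to 316 CPM after 18 h and 267 to 281 CPM after 36 h, and no marker was at 0. The 8 myeloid and dendritic cell markers summed to 11.4 to 13.8 CPM in resting cells and to at most 3.58 CPM in any culture, with Siglech at 0 in each cultured group. The part of these cells in the changes described here was not tested. A transcript of the ribosomal RNA locus on chromosome 17 (chr17:39846958-39848788, GENCODE M21 name Gm42418) varied from 741 to 26030 CPM between libraries, and its values are given beside the results.

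By length-corrected abundance, Gapdh was at the top of the list, with a median TPM (relative transcript abundance, corrected for length) of 2814 over the 32 libraries, a lowest value of 833 and a highest of 3663. Ldha followed with a median of 1738 TPM, Pkm with 1397 TPM and Aldoa with 1119 TPM. Pfkfb4 at a median of 2.13 TPM, Aldoc at 2.56 TPM and Vegfa at 3.67 TPM were at the bottom. The ranges of Gapdh, Ldha, Pkm and Aldoa over the 32 libraries, which span all groups, overlapped. So did those of the 3 lowest genes, and the order given is that of the medians only. The summed TPM of 18 glycolytic enzyme and lactate dehydrogenase genes took up 0.346% ± 0.00484 of all TPM in resting cells, 0.923% ± 0.0216 in controls at 18 h and 1.3% ± 0.0292 in controls at 36 h (SD, n = 3 each). With an agonist the same sum at 36 h averaged 1.41% ± 0.0221 with TNFR2, 1.4% ± 0.0229 with 4-1BB, 1.33% ± 0.0175 with DR3 and 1.42% ± 0.0101 with OX40. In bulk RNA, fewer cells of a type and less RNA per cell cannot be told apart, and every level is a share of the RNA in its library.

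**Figure D1:**
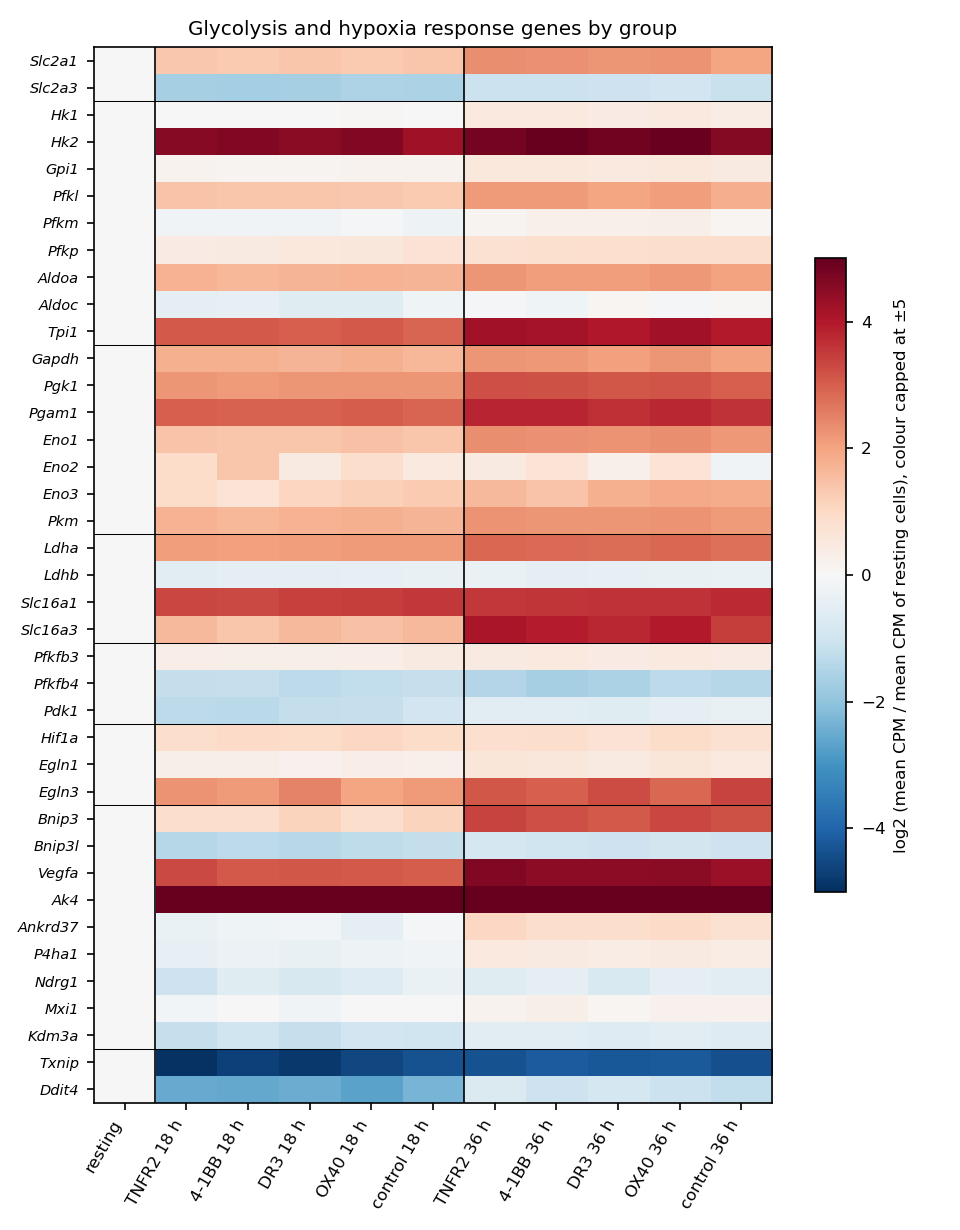
Colour gives the log2 ratio of each group's mean CPM to the mean of resting cells (columns are groups, rows are the 39 genes, lines part their roles, colour capped at ±5). Hk2, Ak4 and Vegfa are among the genes high in all cultured groups, Txnip is low in all of them, and Bnip3 and Slc16a3 are darker at 36 h than at 18 h.

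How the list differed between cultured and resting cells was asked with the controls. At 18 h, 35 of the 39 genes differed from resting cells, 24 higher and 11 lower (edgeR quasi-likelihood F test, Benjamini-Hochberg adjusted over all tested genes, called under 0.05). The background was wide, since the same comparison called 80.9% of tested genes, 40.9% higher and 40.1% lower, so the number called says little about the list. Its median log2 fold change was 0.71, against −0.01 for all tested genes, and 18 of the 39 were at least 2-fold higher and 6 at least 2-fold lower. At 36 h, 36 genes differed from resting cells, 27 higher and 9 lower (background 84.5% of tested genes, 42.4% higher and 42.1% lower). Between the controls, 34 genes differed at 36 h from 18 h, 31 higher and 3 lower, where the background was 52.2% of tested genes, 25.6% higher and 26.6% lower. The median log2 fold change of the list was 0.37 in that comparison, against −0.02 for all tested genes. Between these controls the cytotoxic, NK and gamma-delta markers summed to 36.1 to 37.4 CPM at 36 h, against 14.3 to 15 CPM at 18 h, and the ribosomal locus transcript was 741 to 3246 CPM at 36 h, against 8114 to 26030 CPM at 18 h. Their part in the difference was not tested. With that transcript as a covariate 33 genes were called, but its values did not overlap between these groups, so a covariate cannot separate it from time. Leaving out the libraries over 10000 CPM of it keeps only 1 control at 18 h. These comparisons share the control or resting libraries and are not independent of each other.

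The glucose transporters moved in opposite directions. Slc2a1 (GLUT1, ENSMUSG00000028645, chr4:119108711-119137983) had 32.3, 31.8 and 36.9 CPM in resting cells, 88, 83.4 and 89.6 CPM in controls at 18 h and 135, 123 and 134 CPM in controls at 36 h. No library of one group overlapped another, and Slc2a1 rose at 18 h over resting cells by 1.38 ± 0.05 on the log2 scale (SE; adjusted p 4.79e-28) and again at 36 h over 18 h by 0.58 ± 0.04 (adjusted p 6.89e-16). Slc2a3 (GLUT3, the high-affinity transporter, ENSMUSG00000003153, chr6:122727809-122801640) had 102, 96.6 and 100.2 CPM in resting cells, 36.3, 31 and 32.4 CPM at 18 h and 45.7, 45.5 and 45 CPM at 36 h. It fell at 18 h, with a log2 fold change of −1.58 ± 0.05 against resting cells (adjusted p 3.63e-32), and was higher at 36 h than at 18 h by 0.45 ± 0.05. Slc2a1 made up 33.7% ± 2.25 of the summed TPM of the 2 transporters in resting cells, 78.3% ± 2.16 in controls at 18 h and 78.9% ± 0.822 in controls at 36 h.

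Hexokinase traps glucose in the cell as glucose 6-phosphate, and the 2 abundant forms behaved differently. Hk2 (ENSMUSG00000000628, chr6:82725025-82774454) had 7.31, 9.68 and 9.23 CPM in resting cells, 161, 169 and 167 CPM in controls at 18 h and 218, 213 and 205 CPM in controls at 36 h. All cultured libraries were far above all resting ones, with a log2 fold change of 4.24 ± 0.06 at 18 h against resting cells (adjusted p 1.66e-45) and a further 0.36 ± 0.04 at 36 h over 18 h. Hk1, the form most cells keep, averaged 190.3 ± 9.6 CPM in resting cells, 189.5 ± 1.41 CPM at 18 h and 244 ± 1.63 CPM at 36 h. Hk1 did not pass at 18 h against resting cells (adjusted p 0.914) and rose by 0.37 ± 0.04 at 36 h over 18 h. Hk2 took up 2.74% ± 0.55 of hexokinase TPM in resting cells, 35.4% ± 0.306 in controls at 18 h and 34.8% ± 0.808 in controls at 36 h, so Hk1 stayed the more abundant form in these groups.

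Among the other upper enzymes, triose phosphate isomerase Tpi1 (ENSMUSG00000023456, chr6:124810586-124814296) changed most. Tpi1 had 45.2, 46.4 and 43.2 CPM in resting cells, 339, 343 and 339 CPM at 18 h and 713, 665 and 703 CPM at 36 h. It rose in both steps, by 2.92 ± 0.05 at 18 h over resting cells and by 1.03 ± 0.04 at 36 h over 18 h (adjusted p 5.24e-28). Aldoa, the main aldolase, was 1.72 ± 0.04 higher on the log2 scale at 18 h than in resting cells and 0.31 ± 0.03 higher at 36 h than at 18 h. Of the phosphofructokinases, which set the committed step, Pfkl rose by 1.30 ± 0.04 at 18 h over resting cells and Pfkp by 0.71 ± 0.04, while Pfkm fell, with a log2 fold change of −0.25 ± 0.08. Pfkl made up 29.9% ± 2.08 of the family's TPM in resting cells, 39% ± 1.32 in controls at 18 h and 44.4% ± 1.64 in controls at 36 h. Pfkm shares exon bases with another annotated gene on the same strand. Only 21 of its 32 expected counts were whole, so its level and fold are uncertain. Gpi1, glucose 6-phosphate isomerase, had the smallest call at 18 h against resting cells (0.16 ± 0.04). That call is fragile, since a stricter count filter gave 0.04 (adjusted p 0.33) and the deposited TPM gave a log2 ratio of −0.06. Aldoc, with 2.12 to 3.29 CPM in these groups, passed in none of the 3 comparisons.

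The 7 lower enzyme genes, which carry the triose phosphates to pyruvate, were all higher at 18 h than in resting cells (background 40.9% higher). Gapdh (ENSMUSG00000057666, chr6:125161715-125166467) had 448, 476 and 469 CPM in resting cells, 1490, 1452 and 1452 CPM at 18 h and 1889, 1821 and 1904 CPM at 36 h. The gene often used as a fixed reference thus differed by 1.66 ± 0.04 on the log2 scale between controls at 18 h and resting cells (adjusted p 9.51e-39). Phosphoglycerate mutase Pgam1 rose by 2.91 ± 0.06 and phosphoglycerate kinase Pgk1 by 2.20 ± 0.04 at 18 h over resting cells. Pyruvate kinase Pkm rose by 1.69 ± 0.04, but its level and folds are uncertain, because it shares 767 exon bases with another annotated gene on the same strand and none of its 32 expected counts was whole. On the same scale enolase Eno1 rose by 1.39 ± 0.04, and Eno3, the muscle enolase, by 1.32 ± 0.06. At 36 h over 18 h these genes rose again, by 0.35 for Gapdh up to 0.78 ± 0.04 for Pgk1. Eno2, the neuronal enolase, was the exception. It had 5.03, 5.39 and 4.07 CPM in resting cells, 6.49, 6.19 and 7.72 CPM at 18 h and 3.99, 4.12 and 4.64 CPM at 36 h, so it rose at 18 h over resting cells (0.48 ± 0.14, adjusted p 0.00138) and fell at 36 h against 18 h (−0.68 ± 0.13, adjusted p 1.5e-05). Eno1 carried 85.8% ± 1.03 of enolase TPM in resting cells, 86.9% ± 0.254 in controls at 18 h and 89.4% ± 0.276 in controls at 36 h.

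Lactate dehydrogenase A, which turns pyruvate into lactate, and both exporters rose. Ldha (ENSMUSG00000063229, chr7:46841475-46855627) had 314, 327 and 319 CPM in resting cells, 1412, 1412 and 1429 CPM in controls at 18 h and 2262, 2094 and 2193 CPM in controls at 36 h. Its log2 fold change was 2.15 ± 0.04 at 18 h against resting cells and 0.62 ± 0.04 at 36 h against 18 h (adjusted p 1.71e-20). Ldhb, the isoform that favours lactate use, fell at 18 h (−0.37 ± 0.06), and its level at 36 h was 27.5 ± 0.759 CPM against 26.8 ± 2.79 CPM at 18 h, which did not pass (adjusted p 0.633). Ldha made up 88.1% ± 0.83 of lactate dehydrogenase TPM in resting cells, 97.5% ± 0.292 in controls at 18 h and 98.4% ± 0.0238 in controls at 36 h.

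The 2 lactate transporters differed in timing. Slc16a1 (MCT1, ENSMUSG00000032902, chr3:104638668-104658462) had 18, 22.6 and 22.8 CPM in resting cells, 241, 244 and 249 CPM at 18 h and 281, 285 and 279 CPM at 36 h. Most of its rise lay before 18 h, with 3.53 ± 0.05 at 18 h over resting cells and 0.20 ± 0.04 at 36 h over 18 h. Slc16a3 (MCT4, the exporter of highly glycolytic cells, ENSMUSG00000025161, chr11:120948480-120960868) had 7.65, 8.15 and 9.31 CPM in resting cells, 28.1, 26.3 and 23.8 CPM at 18 h and 93.4, 83.3 and 96.6 CPM at 36 h. Slc16a3 rose by 1.64 ± 0.10 at 18 h over resting cells and by 1.81 ± 0.06 at 36 h over 18 h (adjusted p 1.59e-25). Its share of the TPM of the pair was 50.03% ± 6.07 in resting cells, 20.8% ± 2.41 in controls at 18 h and 43.9% ± 2.31 in controls at 36 h.

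**Figure D2:**
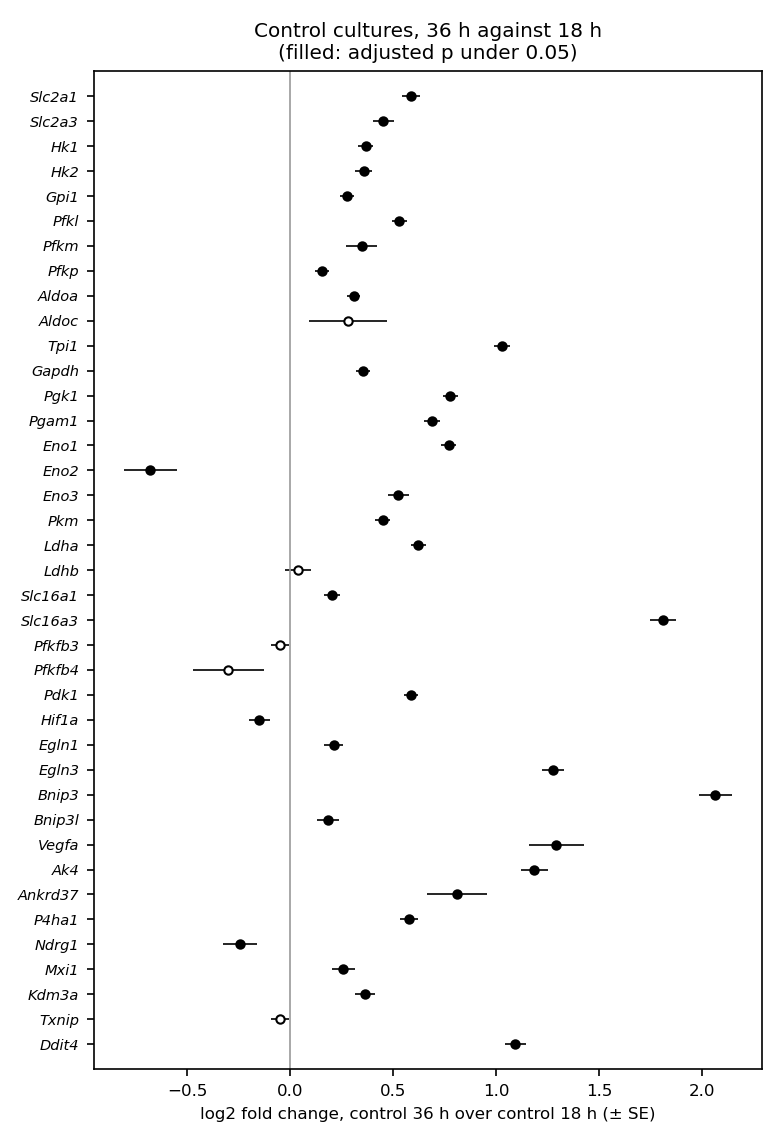
Log2 fold change of control cultures at 36 h over control cultures at 18 h for each of the 39 genes, with its SE; filled points passed an adjusted p of 0.05. Bnip3, Slc16a3 and Vegfa are far to the right, Eno2 is far to the left, and Txnip lies near 0 and was not called.

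Of the 3 regulators of glycolytic flux, 1 was higher and 2 were lower at 18 h against resting cells (background 40.9% higher and 40.1% lower). Pdk1, the kinase that closes pyruvate dehydrogenase and so keeps pyruvate out of mitochondria, had 176, 176 and 176 CPM in resting cells, 87.9, 92.2 and 89.8 CPM at 18 h and 138, 136 and 132 CPM at 36 h. It was lower at 18 h than in resting cells (−0.97 ± 0.04) and higher at 36 h than at 18 h (0.59 ± 0.03, adjusted p 9.35e-20). Pfkfb3, which makes the phosphofructokinase activator fructose 2,6-bisphosphate, rose by 0.46 ± 0.05 at 18 h over resting cells and averaged 85.9 ± 2.42 CPM at 36 h against 88.8 ± 3.12 CPM at 18 h (adjusted p 0.385). Pfkfb4, another member of that family, fell at 18 h against resting cells (−1.13 ± 0.16) and had 2.29 to 3.62 CPM at 36 h, which overlapped 3.41 to 3.81 CPM at 18 h.

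Hif1a, which encodes HIF-1 alpha, had 250.5, 282 and 252 CPM in resting cells, 495, 489.6 and 482 CPM at 18 h and 445, 470.5 and 406 CPM at 36 h. It rose by 0.90 ± 0.05 at 18 h over resting cells and was lower at 36 h than at 18 h (−0.15 ± 0.05, adjusted p 0.0137). That second call was lost without replicate 3 of the controls at 36 h (−0.09, adjusted p 0.121). It was also lost with the ribosomal locus transcript as a covariate (adjusted p 0.0914). Without the libraries over 10000 CPM of that transcript, which leaves 1 control at 18 h, the value was −0.125. Hif1a shares exon bases with another annotated gene on the same strand, and none of its 32 expected counts was whole, so its level is uncertain. Egln3, a HIF prolyl hydroxylase that is itself a HIF target (ENSMUSG00000035105, chr12:54178981-54203860), had 7.65, 6.13 and 6.57 CPM in resting cells, 30.2, 29.2 and 28.9 CPM at 18 h and 69.8, 67.7 and 76.5 CPM at 36 h. It rose by 2.12 ± 0.08 and then by 1.28 ± 0.05 (adjusted p 1.71e-25), whereas Egln1, the main oxygen sensor of the family, rose by 0.26 ± 0.05 and 0.21 ± 0.05 in the same steps. Egln3 made up 4.65% ± 0.346 of the TPM of Egln1, Egln2 and Egln3 in resting cells, 18.7% ± 0.345 in controls at 18 h and 34.8% ± 0.71 in controls at 36 h, while the share of Egln2 was 53.1% ± 1.79, 34.6% ± 0.977 and 23.5% ± 0.7 in that order.

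Among the 9 hypoxia response effectors, 3 rose, 4 fell and 2 did not pass at 18 h against resting cells. These counts are near the background, which was 40.9% higher and 40.1% lower. At 36 h against 18 h 8 rose and 1 fell, where the background was 25.6% higher and 26.6% lower. Bnip3, a mitochondrial receptor for autophagy (ENSMUSG00000078566, chr7:138890836-138909519), had 3.79, 4.11 and 3.13 CPM in resting cells, 8.34, 7.27 and 8.06 CPM at 18 h and 34, 32.9 and 32.2 CPM at 36 h. Its rise was larger in the second step (2.06 ± 0.08, adjusted p 4.9e-27) than in the first (1.09 ± 0.13), which was not tested as a difference. Bnip3 shares 504 exon bases with an antisense gene, and the library kit does not mark strand. All 32 expected counts of Bnip3 were whole. Its paralog Bnip3l fell at 18 h against resting cells (−1.21 ± 0.05), and Bnip3 made up 7.76% ± 0.566 of their joint TPM in resting cells, 25.3% ± 0.347 in controls at 18 h and 53.3% ± 0.81 in controls at 36 h.

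Ak4, a mitochondrial adenylate kinase (ENSMUSG00000028527, chr4:101419277-101466995), had 0.276, 0.368 and 0.235 CPM in resting cells, 15, 15.8 and 14.7 CPM at 18 h and 34.6, 33 and 35.7 CPM at 36 h. Its fitted log2 fold change of 5.64 ± 0.18 at 18 h over resting cells rests on very low resting counts, and it rose by 1.19 ± 0.06 at 36 h over 18 h (adjusted p 4.92e-21). Vegfa, the vessel growth factor, had 0.414, 0.368 and 0.313 CPM in resting cells, 3.69, 2.55 and 2.72 CPM at 18 h and 6.26, 8.6 and 7.02 CPM at 36 h. These low values did not overlap between groups, and Vegfa rose by 3.00 ± 0.28 and 1.29 ± 0.13 in the 2 steps.

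P4ha1, a collagen prolyl hydroxylase, and the histone demethylase Kdm3a fell at 18 h against resting cells (−0.19 ± 0.05 and −1.005 ± 0.049) and rose at 36 h over 18 h (0.58 ± 0.04 and 0.36 ± 0.05). Ankrd37 and the MYC antagonist Mxi1 did not pass at 18 h and were higher at 36 h than at 18 h, by 0.81 ± 0.14 and 0.26 ± 0.06. Ndrg1, a stress-induced gene, fell at 18 h (−0.32 ± 0.08) and was lower again at 36 h (−0.24 ± 0.08, adjusted p 0.0127). That second call was lost without replicate 1 of the controls at 18 h (−0.19, adjusted p 0.0948) and without replicate 3 of the controls at 36 h (−0.21, adjusted p 0.0556). Without the libraries over 10000 CPM of the ribosomal locus transcript, which leaves 1 control at 18 h, this Ndrg1 value was −0.14. The P4ha1 call at 18 h was lost without the libraries high in the ribosomal locus transcript (−0.09, adjusted p 0.216).

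The 2 brakes were among the genes that fell most. Txnip, which limits glucose uptake and reports sugar phosphates through the factor MondoA (ENSMUSG00000038393, chr3:96557957-96561883), had 1021, 1018 and 985 CPM in resting cells, 50.4, 48.1 and 49.3 CPM at 18 h and 49.1, 45.4 and 48.4 CPM at 36 h. It fell at 18 h (−4.35 ± 0.04 against resting cells, adjusted p 1.67e-52) and did not pass between 36 h and 18 h (adjusted p 0.38). Ddit4 (REDD1), which restrains the growth kinase mTORC1 (ENSMUSG00000020108, chr10:59949669-59951834), had 187, 184 and 195 CPM in resting cells, 38.7, 37.2 and 36.7 CPM at 18 h and 80.3, 76 and 83.8 CPM at 36 h. Ddit4 fell at 18 h (−2.33 ± 0.05) and rose at 36 h over 18 h (1.09 ± 0.05, adjusted p 2.52e-23), remaining below resting cells (−1.23 ± 0.05). Txnip shares 606 exon bases with an antisense gene, and the library kit does not mark strand, so reads in those bases cannot be told apart by strand. All 32 expected counts of Txnip were whole.

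**Figure D3:**
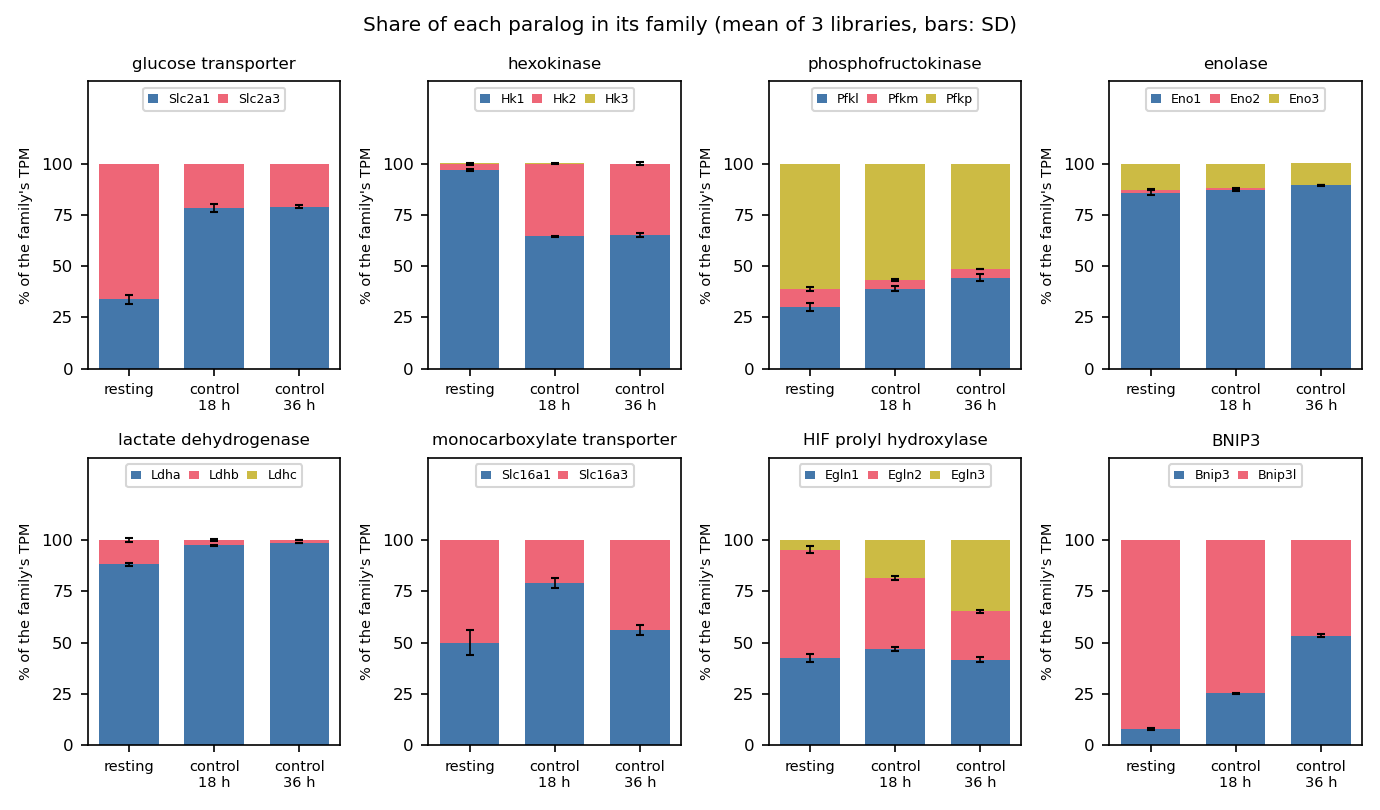
Share of each paralog in the summed TPM of its family, in resting cells and controls at 18 h and 36 h (stacked bars, mean of 3 libraries, error bars the SD of the share, drawn at the top of each segment). Slc2a1, Hk2 and Egln3 took larger shares in controls than in resting cells, and Bnip3 reached 53.3% at 36 h.

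What the 4 agonists added to stimulation at 18 h was asked against the controls of that time. The TNFR2 agonist changed 16 of the 39 genes, 5 higher and 11 lower (background 31.1% of tested genes, 15.8% higher and 15.3% lower). The 4-1BB agonist changed 13, 4 higher and 9 lower (background 25.8% of tested genes, 12.7% higher and 13.1% lower). The DR3 agonist changed 12, 2 higher and 10 lower (background 19.6% of tested genes, 9.66% higher and 9.94% lower). The OX40 agonist changed 10, 4 higher and 6 lower (background 19.0% of tested genes, 9.32% higher and 9.71% lower). As shares of the list these counts were 41%, 33.3%, 30.8% and 25.6%. No gene of the list changed 2-fold with any agonist at either time. The 4 agonists were compared with the same control libraries, so their results are not independent, and the values are given side by side.

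Hk2 was higher with each agonist at 18 h. It averaged 202 ± 8.92 CPM with TNFR2, 217 ± 7.16 CPM with 4-1BB, 199 ± 8.2 CPM with DR3 and 214 ± 5.3 CPM with OX40, against 166 ± 4.42 CPM in controls. No agonist library overlapped a control library, and the log2 fold changes were 0.29 ± 0.04, 0.39 ± 0.04, 0.26 ± 0.04 and 0.37 ± 0.04 in that order (adjusted p from 3.6e-11 to 2.31e-06). Pdk1, Pfkp, Ndrg1 and Txnip were called lower with each agonist. The Ndrg1 call was lost without replicate 1 of the controls with 4-1BB (adjusted p 0.104) and OX40 (adjusted p 0.0853), without replicate 3 of 4-1BB (adjusted p 0.0631) and without replicate 1 of OX40 (adjusted p 0.239), and the Pfkp call with OX40 without its replicate 2 (adjusted p 0.121). Pdk1 averaged 71.6 ± 1.53, 70.1 ± 1.25, 76.6 ± 0.639 and 79 ± 0.777 CPM with the TNFR2, 4-1BB, DR3 and OX40 agonists, against 89.9 ± 2.15 CPM in controls, and again no libraries overlapped. Txnip had 32.7, 31.5 and 34.2 CPM with TNFR2, 40.5, 39 and 38.8 CPM with 4-1BB, 37.4, 38.1 and 32.6 CPM with DR3 and 41.4 and 45 CPM with OX40, against 50.4, 48.1 and 49.3 CPM in controls. Its log2 fold change was −0.59 ± 0.05 with TNFR2 (adjusted p 6.09e-14) and −0.19 ± 0.05 with OX40 (adjusted p 0.00581), and the OX40 call was lost without its replicate 1 (−0.13, adjusted p 0.161).

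Both minor enolases differed between agonists at 18 h. Eno2 had 14.3, 11 and 12.28 CPM with the 4-1BB agonist, against 6.49, 6.19 and 7.72 CPM in controls, a log2 fold change of 0.87 ± 0.11 (adjusted p 7.89e-09). With TNFR2 it changed by 0.40 ± 0.12, and by 0.19 without the libraries over 10000 CPM of the ribosomal locus transcript. With DR3 it averaged 6.67 ± 0.3 CPM, against 6.8 ± 0.809 CPM in controls (adjusted p 0.91). With OX40 Eno2 was also called higher, a call lost without replicate 1 or 2 of the controls (adjusted p 0.0963 and 0.132). Without replicate 1 of OX40 that change was 0.20. Eno3 went the other way, with 46, 46.5 and 45.5 CPM with the 4-1BB agonist, against 73.7, 71.4 and 68.2 CPM in controls (−0.63 ± 0.06, adjusted p 1.22e-12). Egln3 rose with the DR3 agonist and did not pass with the other 3. It had 38.9, 37.1 and 37.9 CPM with DR3, against 30.2, 29.2 and 28.9 CPM in controls (0.37 ± 0.06, adjusted p 5.51e-06). A joint test of any difference among the 4 agonists at 18 h called 12 of the 39 genes (background 14.3%), among them Eno2 (adjusted p 5.21e-07), Eno3 (adjusted p 3.37e-07), Egln3 (adjusted p 4.94e-07) and Txnip (adjusted p 1.73e-06). The joint count was 7 when only the groups compared were fitted. Because doses were not matched, such a difference cannot be told apart from one of dose.

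At 18 h the ribosomal locus transcript was 1407 to 11860 CPM in agonist libraries and 8114 to 26030 CPM in controls. Only replicate 1 of TNFR2, at 11860 CPM, reached the range of the controls. With 4-1BB, DR3 and OX40 the values of that transcript did not overlap those of controls, so a covariate cannot separate it from these agonists. With it as a covariate the counts of changed genes were 15, 13, 10 and 8 for TNFR2, 4-1BB, DR3 and OX40, and without the 6 libraries over 10000 CPM, which leaves 1 control at 18 h, they were 10, 9, 7 and 4. The 7 markers of cytotoxic, NK and gamma-delta lymphocytes summed to 19.2 to 25.4 CPM in agonist libraries and 14.3 to 15 CPM in controls, with Ncr1 at 0 in each group, and the B cell markers to 322 to 423 CPM and 293 to 316 CPM. The part of these cells in the result was not tested. Leaving out any single library kept 12 of the 16 TNFR2 calls, 8 of the 13 of 4-1BB, 8 of the 12 of DR3 and 3 of the 10 of OX40, the last being Hk2, Pdk1 and Ddit4.

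At 36 h the same comparisons leaned the other way, towards higher levels. The TNFR2 agonist changed 27 of the 39 genes, 22 higher and 5 lower (background 24.8% of tested genes, 13.0% higher and 11.9% lower). The 4-1BB agonist changed 20, 16 higher and 4 lower (background 22.5% of tested genes, 10.9% higher and 11.5% lower). The DR3 agonist changed 11, 8 higher and 3 lower (background 13.4% of tested genes, 6.97% higher and 6.39% lower). The OX40 agonist changed 23, 20 higher and 3 lower (background 13.3% of tested genes, 7.12% higher and 6.21% lower). As shares of the list these were 69.2%, 51.3%, 28.2% and 59%. The median log2 fold change of the list was 0.11, 0.08, 0.03 and 0.16 in that order, and that of all tested genes lay within 0.01 of 0 in each.

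**Figure D4:**
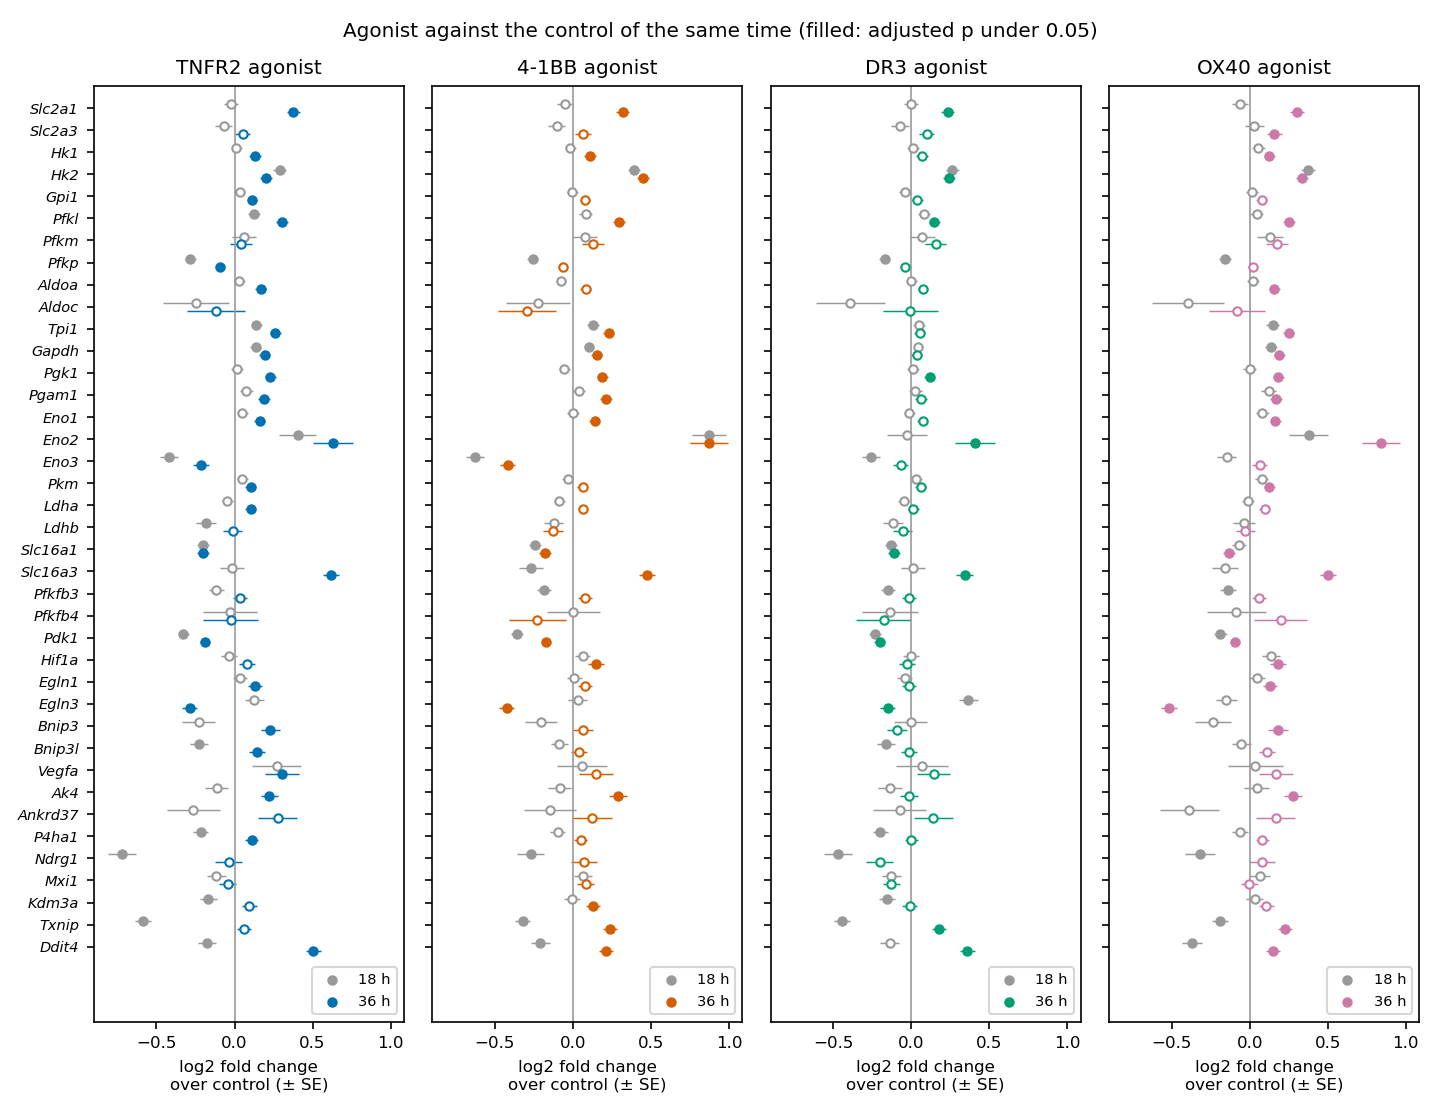
Log2 fold change of each agonist over the control of the same time, with its SE, for the 39 genes (grey, 18 h; coloured, 36 h; filled, adjusted p under 0.05). Slc2a1, Slc16a3 and Ddit4 sit further right at 36 h than at 18 h with each agonist, and Egln3 sits further left.

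Slc2a1, Hk2, Pfkl, Pgk1, Eno2, Slc16a3 and Ddit4 were called higher with each of the 4 agonists at 36 h. With DR3 the Pgk1 call was lost without replicate 2 of the controls or replicate 1 or 3 of DR3 (adjusted p from 0.0545 to 0.157), and the Eno2 call without replicate 1 or 2 of the controls or replicate 2 or 3 of DR3 (adjusted p from 0.0777 to 0.104). Slc2a1 had 172, 166 and 172 CPM with TNFR2, 158, 164 and 167 CPM with 4-1BB, 155, 151 and 154 CPM with DR3 and 162, 159.5 and 161 CPM with OX40, against 135, 123 and 134 CPM in controls. Every agonist library lay above every control library, with log2 fold changes from 0.23 ± 0.04 with DR3 to 0.38 ± 0.04 with TNFR2 (adjusted p 5.03e-05 and 6.29e-10). The lactate exporter Slc16a3 had 134, 145 and 141 CPM with TNFR2, 125, 126 and 128 CPM with 4-1BB, 119.8, 112 and 114 CPM with DR3 and 122, 126 and 139 CPM with OX40, against 93.4, 83.3 and 96.6 CPM in controls. It too showed no overlap, and it rose by 0.62 ± 0.05, 0.47 ± 0.05, 0.34 ± 0.05 and 0.50 ± 0.05 in that order. Slc16a1 fell with each, from −0.20 ± 0.04 with TNFR2 to −0.11 ± 0.04 with DR3. The DR3 call was lost without replicate 1, 2 or 3 of the controls or replicate 1 or 2 of DR3 (adjusted p from 0.0609 to 0.181), and the OX40 call without replicate 2 of the controls (adjusted p 0.0661). Slc16a3 made up 58.7% ± 1.54, 55.3% ± 0.438, 52.3% ± 1.51 and 55.3% ± 2.4 of the TPM of the pair with the TNFR2, 4-1BB, DR3 and OX40 agonists, against 43.9% ± 2.31 in controls.

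Hk2 averaged 244 ± 12 CPM with TNFR2, 289.5 ± 8.47 CPM with 4-1BB, 250.5 ± 2.61 CPM with DR3 and 268 ± 2.59 CPM with OX40, against 212 ± 6.7 CPM in controls. The 4-1BB value was the highest of these, with a log2 fold change of 0.45 ± 0.04 (adjusted p 3.31e-13). Ddit4 was highest with the TNFR2 agonist, with 113, 116 and 112 CPM, against 80.3, 76 and 83.8 CPM in controls (0.51 ± 0.05, adjusted p 2.04e-12). With 4-1BB, DR3 and OX40 Ddit4 rose by 0.21 ± 0.05, 0.36 ± 0.05 and 0.15 ± 0.05, and the OX40 call was lost when replicate 1 or 2 of the controls at 36 h or replicate 3 of OX40 was left out (adjusted p 0.0541, 0.174 and 0.226). Eno2 was 0.63 ± 0.13, 0.87 ± 0.12, 0.41 ± 0.13 and 0.84 ± 0.12 higher on the log2 scale with TNFR2, 4-1BB, DR3 and OX40.

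The steps between glucose and pyruvate changed by small amounts. Tpi1 averaged 832 ± 12.2 CPM with TNFR2, 813 ± 11.7 CPM with 4-1BB and 824 ± 17.2 CPM with OX40, against 694 ± 25.1 CPM in controls, rises of 0.26 ± 0.04, 0.23 ± 0.04 and 0.25 ± 0.04. With DR3 it averaged 719.8 ± 6.68 CPM, which did not pass (adjusted p 0.389). Of the 16 enzyme genes of upper and lower glycolysis, 12 rose and 2 fell with TNFR2 (background 13.0% higher and 11.9% lower). With 4-1BB 9 rose and 1 fell (background 10.9% higher and 11.5% lower). With DR3 4 rose (background 6.97% higher), and with OX40 11 rose (background 7.12% higher). Gpi1, Pfkp and Pkm with TNFR2 and Hk1 with 4-1BB lost their calls when single libraries were left out. So did Pgk1 and Eno2 with DR3 and Hk1 and Pkm with OX40. Across the 4 agonists the joint test at 36 h called 14 of the 39 genes (background 9.06%), Tpi1 (adjusted p 6.52e-05), Hk2 (adjusted p 1.68e-05), Eno3 (adjusted p 6.92e-09), Egln3 (adjusted p 1.11e-06) and Ddit4 (adjusted p 2.08e-07) among them.

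Egln3, Slc16a1 and Pdk1 were called lower with each agonist at 36 h. The Pdk1 call with OX40 was lost in 4 of the 6 fits that left out 1 library, under DESeq2, with no count filter, when only the groups compared were fitted and with either treatment of the ribosomal locus transcript (adjusted p from 0.0561 to 0.21). Egln3 had 57, 58.1 and 60.3 CPM with TNFR2, 54.3, 52.7 and 52.5 CPM with 4-1BB, 65, 65.3 and 62.3 CPM with DR3 and 50.8, 52.3 and 46.4 CPM with OX40, against 69.8, 67.7 and 76.5 CPM in controls. Its log2 fold change was −0.52 ± 0.05 with OX40 (adjusted p 1.63e-11), −0.42 ± 0.05 with 4-1BB and −0.29 ± 0.05 with TNFR2. The DR3 value of −0.15 ± 0.05 was called (adjusted p 0.0267) but was lost without replicate 3 of the controls (−0.10, adjusted p 0.237) or without replicate 1 or 3 of DR3 (adjusted p 0.0634 and 0.116). The DR3 call of Egln3 was also lost with either treatment of the ribosomal locus transcript (adjusted p 0.0966 and 0.156). Egln3 and Slc16a3, both known targets of HIF in other cells, had opposite signs with each agonist. A part of HIF in this was not tested. Bnip3 averaged 38.7 ± 0.966 CPM with TNFR2 and 37.6 ± 1.24 CPM with OX40, against 33 ± 0.876 CPM in controls, and was called with both (0.23 ± 0.06 and 0.18 ± 0.06). The TNFR2 call held in every alternative, whereas the OX40 call was lost without replicate 1, 2 or 3 of the controls or replicate 2 or 3 of OX40. The OX40 call of Bnip3 was also lost under DESeq2, with no count filter and with either treatment of the ribosomal locus transcript (adjusted p from 0.0528 to 0.166 over all these fits). Of the 9 hypoxia effectors, 5 were called with TNFR2 (background 24.8%), 2 with 4-1BB (22.5%), 0 with DR3 (13.4%) and 2 with OX40 (13.3%), all higher, and the 4-1BB share is near its background. Bnip3l, Vegfa and P4ha1 with TNFR2, Kdm3a with 4-1BB and Bnip3 with OX40 lost their calls when single libraries were left out, which leaves Bnip3 and Ak4 with TNFR2 and Ak4 with 4-1BB and OX40.

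At 36 h the ribosomal locus transcript was 1206 to 15000 CPM in agonist libraries and 741 to 3246 CPM in controls, and with it as a covariate the counts of changed genes were 22, 19, 10 and 18 for TNFR2, 4-1BB, DR3 and OX40. Without the libraries over 10000 CPM they were 19, 17, 7 and 18, and the joint count was 8. The B cell markers summed to 260.4 to 298 CPM in agonist libraries and 267 to 281 CPM in controls at 36 h, and the cytotoxic, NK and gamma-delta markers to 28.3 to 39.8 CPM and 36.1 to 37.4 CPM, and their part in the result was not tested. Leaving out any single library kept 19 of 27, 17 of 20, 7 of 11 and 14 of 23 of the calls. Slc2a1, Hk2, Pfkl and Slc16a3 kept theirs with all 4 agonists in every alternative that gave a test.

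Whether an agonist acted differently at the 2 times was tested as the difference of its effects. It passed for 14 of the 39 genes with TNFR2, 13 positive and 1 negative (background 6.69% of tested genes, 3.68% higher and 3.01% lower). With 4-1BB it passed for 12, 11 positive and 1 negative (background 4.37% of tested genes, 2.34% higher and 2.03% lower). With DR3 it passed for 5, 4 positive and 1 negative (background 2.31% of tested genes, 1.22% higher and 1.10% lower). With OX40 it passed for 7, 6 positive and 1 negative (background 3.48% of tested genes, 2.10% higher and 1.38% lower). Without the libraries over 10000 CPM of the ribosomal locus transcript these counts were 6, 7, 3 and 4, and the OX40 count was 4 without replicate 2 and 10 without replicate 1 of OX40 at 18 h. The DR3 count was 3 in 6 of the 12 fits that left out 1 library and with that transcript as a covariate. Slc2a1, Slc16a3, Txnip and Ddit4 had a positive difference and Egln3 a negative one with each agonist. For Ddit4 it was 0.68 ± 0.08, 0.42 ± 0.08, 0.50 ± 0.08 and 0.52 ± 0.08 with TNFR2, 4-1BB, DR3 and OX40 (adjusted p 3.95e-09, 0.000119, 1.97e-05 and 3.48e-05). Txnip, lower with each agonist at 18 h, had 55.7, 56.4 and 56.1 CPM with 4-1BB, 55.1, 52.6 and 53.7 CPM with DR3 and 57.4, 53.5 and 55.6 CPM with OX40 at 36 h, against 49.1, 45.4 and 48.4 CPM in controls, and was higher with these 3. The DR3 differences for Slc2a1 (0.23) and Slc16a3 (0.33) were each lost in 8 of the 12 fits that left out 1 library, and that for Slc16a3 also with the replicate block (adjusted p 0.0531).

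**Figure D5:**
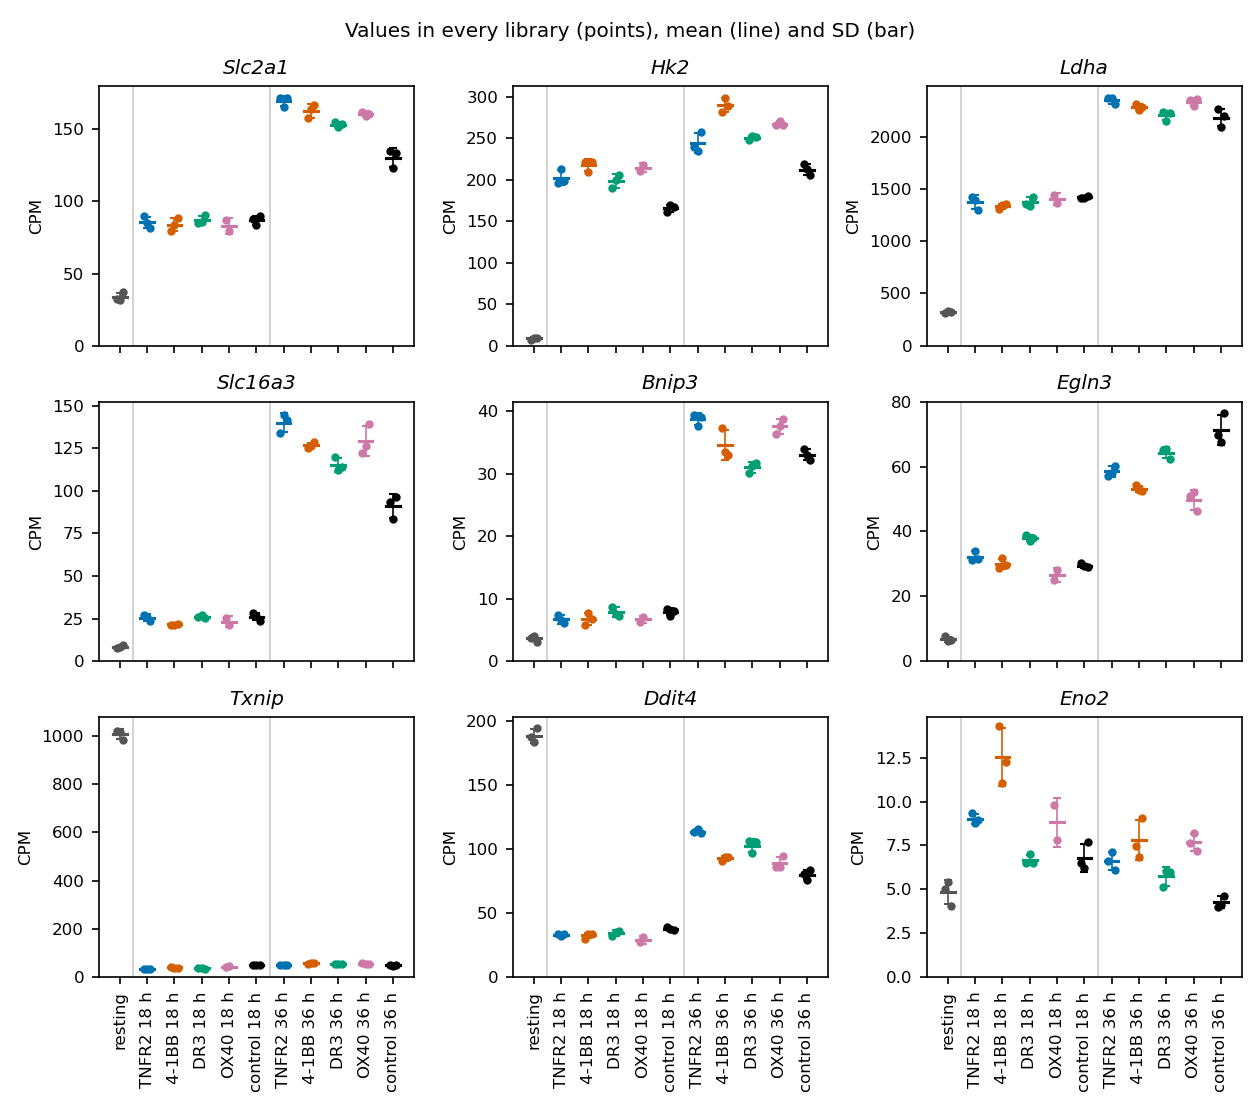
CPM in every library (points), group mean (line) and SD (bar) for 9 genes, with resting cells at the left and each agonist left of the control of its time. Slc2a1 and Slc16a3 lie above the controls with each agonist at 36 h and Egln3 lies below the controls at 36 h.

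Genes of the same pathways outside the list give the setting. In the counts that follow, the background over all tested genes is 80.9% of tested genes, 40.9% higher and 40.1% lower at 18 h against resting cells, and 52.2% of tested genes, 25.6% higher and 26.6% lower at 36 h against 18 h, and a count near it is no result about its list. Of 14 tested other glycolysis genes, 6 rose and 7 fell in controls at 18 h against resting cells, and 4 rose and 1 fell at 36 h against 18 h. Tigar, a phosphatase that diverts sugar to the pentose phosphate pathway, averaged 45.6 ± 0.56 CPM at 18 h, against 17.3 ± 0.945 CPM in resting cells (log2 fold change 1.40 ± 0.06, adjusted p 2.44e-27), and the mitochondrial glycerol 3-phosphate dehydrogenase Gpd2 averaged 60.1 ± 3.27 CPM at 36 h, against 38.5 ± 1.72 CPM at 18 h (log2 fold change 0.64 ± 0.05, adjusted p 2.69e-16). The pentose phosphate pathway, which makes NADPH and ribose, had 10 of 11 tested genes higher at 18 h than in resting cells (background 40.9% higher) and 1 lower (background 40.1%), and 6 higher and 3 lower at 36 h than at 18 h. Its transketolase Tkt averaged 522 ± 3.63 CPM at 18 h, against 193 ± 0.295 CPM in resting cells (log2 fold change 1.44 ± 0.04, adjusted p 2.74e-36), and G6pdx, which opens the pathway, averaged 88.7 ± 2.9 CPM at 18 h, against 38.2 ± 1.22 CPM in resting cells.

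Of 13 tested genes of pyruvate entry into mitochondria, 10 rose and 2 fell at 18 h against resting cells, and 6 rose and 1 fell at 36 h against 18 h. Pyruvate carboxylase Pcx averaged 10.8 ± 0.59 CPM at 36 h, against 5.54 ± 0.845 CPM at 18 h (log2 fold change 0.96 ± 0.11, adjusted p 1.33e-10), and Pdk2 averaged 2.15 ± 0.135 CPM at 36 h, against 5.17 ± 0.743 CPM at 18 h (log2 fold change −1.26 ± 0.17, adjusted p 3.07e-08). The kinase family shifted within itself, since Pdk1 made up 73.5% ± 2.31 of its TPM in resting cells, 55% ± 1.7 in controls at 18 h and 61.5% ± 0.402 in controls at 36 h, while Pdk3 made up 17.2% ± 0.558, 41.1% ± 1.31 and 37.4% ± 0.546. Of 15 HIF pathway regulators, 7 rose and 8 fell at 18 h against resting cells, and 4 rose and 4 fell at 36 h against 18 h. Hif1an, the asparagine hydroxylase that blocks HIF coactivators, averaged 77.5 ± 3.91 CPM at 36 h, against 106 ± 5.13 CPM at 18 h (log2 fold change −0.45 ± 0.04, adjusted p 1.7e-12), and Cited2, a competitor of HIF for those coactivators, averaged 20.3 ± 1.33 CPM at 18 h, against 61.3 ± 6.24 CPM in resting cells (log2 fold change −1.60 ± 0.07, adjusted p 8.15e-27).

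Of 36 tested other hypoxia genes, 19 rose and 11 fell at 18 h against resting cells, and 14 rose and 8 fell at 36 h against 18 h. Plod2, a lysyl hydroxylase, averaged 23.4 ± 0.43 CPM at 36 h, against 11.4 ± 0.805 CPM at 18 h (log2 fold change 1.04 ± 0.08, adjusted p 2.28e-15), and Ero1l, an oxidase of the endoplasmic reticulum, averaged 149 ± 4 CPM at 36 h, against 104 ± 1.68 CPM at 18 h (log2 fold change 0.51 ± 0.04, adjusted p 1.45e-14). In the MondoA and MYC network, 4 of 11 tested genes rose and 5 fell at 18 h against resting cells, and 3 rose and 6 fell at 36 h against 18 h. Myc averaged 742 ± 4.21 CPM at 18 h, against 142 ± 2.66 CPM in resting cells (log2 fold change 2.38 ± 0.04, adjusted p 7.63e-45), and it was lower at 36 h than at 18 h (log2 fold change −0.61 ± 0.03, adjusted p 8.19e-21). Arrdc4, a relative of Txnip that MondoA also controls, averaged 5.6 ± 0.249 CPM at 18 h, against 22.9 ± 0.522 CPM in resting cells (log2 fold change −2.03 ± 0.10, adjusted p 1.06e-23). Among 17 tested mTORC1 regulators, 9 rose and 6 fell at 18 h against resting cells, and 5 rose and 7 fell at 36 h against 18 h. The stress-induced Sesn2, another brake on mTORC1, averaged 60.2 ± 3.88 CPM at 36 h, against 23.3 ± 0.639 CPM at 18 h (log2 fold change 1.37 ± 0.06, adjusted p 1.76e-23), a rise at the same step as that of Ddit4, while Sesn1 averaged 32.2 ± 1.08 CPM at 18 h, against 130.3 ± 1.73 CPM in resting cells (log2 fold change −2.01 ± 0.05, adjusted p 4.05e-36).

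In controls at 18 h against resting cells, the median log2 fold change was −0.16 for the other glycolysis genes, 0.70 for the pentose phosphate pathway, 0.74 for pyruvate entry, −0.44 for the HIF regulators, 0.22 for the other hypoxia genes, −0.01 for the MondoA and MYC network and 0.25 for the mTORC1 regulators, against −0.01 for all tested genes. At 36 h against 18 h it was 0.15 for the other glycolysis genes, 0.11 for the pentose phosphate pathway, 0.06 for pyruvate entry, 0.04 for the HIF regulators, 0.11 for the other hypoxia genes, −0.20 for the MondoA and MYC network and −0.03 for the mTORC1 regulators, against −0.02 for all tested genes.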

How the data were processed

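The authors deposited, for each of 32 libraries, a gene table of RSEM expected counts and TPM values, a length-corrected abundance. Per the submitters' processing notes, FastQC, Trimmomatic, STAR 2.5.3a and RSEM 1.2.28 were used with build mm10; the annotation release is not given in the sources used here. Per the labels' protocols, libraries were made with SMART-Seq v4, which does not mark strand. Expected counts were rounded to whole numbers, filtered with filterByExpr and scaled by TMM. One edgeR 4.0.16 quasi-likelihood fit (R 4.3.3, robust) of 11 group means over 32 libraries tested 14313 genes, with Benjamini-Hochberg adjustment over all of them, and a gene was called at an adjusted p under 0.05. Fold changes are log2 of the fitted ratio, with the SE taken as their size over the square root of F. CPM values are TMM-scaled. TPM as deposited serves for levels between genes, for shares of a family or of all TPM in each group, and as an alternative without a test. The script was checked on simulated counts with 200 changed genes.

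All 39 genes may be named, and of each pathway list up to 4 tested genes with the smallest p in a control comparison. The genes and lists were chosen with earlier results of these data known. Alternatives were DESeq2 1.42.0, DESeq2 size factors, other count filters, separate fits of the groups compared, a replicate block, the ribosomal locus transcript as a covariate, the libraries over 10000 CPM of it left out, deposited TPM, and each library left out in turn. Gene coordinates are those of GENCODE M21 on mm10. Of the 39 genes, 15 share exon bases with another annotated gene, so reads could be split between them. Gpi1, Pfkp, Ndrg1 and Ankrd37 share 741, 748, 556 and 406 exon bases with genes of the opposite strand.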

Additional observations from a re-analysis of the deposited data

Results flagged for a closer look

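The effects of an agonist at 36 h and at 18 h, each against the control of its time, differed by the test of that difference (edgeR interaction term, adjusted p under 0.05) for 38 pairs of a gene and an agonist. Values are the log2 effect at 36 h minus that at 18 h. The 4 agonists share the control libraries, so these results are not independent of each other. With the TNFR2 agonist the difference passed for Slc2a1 (0.40), Pfkl (0.18), Pfkp (0.19), Pgk1 (0.21), Slc16a3 (0.64), Egln3 (−0.41), Bnip3 (0.46), Bnip3l (0.37), Ak4 (0.34), P4ha1 (0.33), Ndrg1 (0.68), Kdm3a (0.26), Txnip (0.64) and Ddit4 (0.68). With the 4-1BB agonist the difference passed for Slc2a1 (0.37), Pfkl (0.21), Pfkp (0.19), Aldoa (0.16), Pgk1 (0.24), Slc16a3 (0.74), Pfkfb3 (0.26), Pdk1 (0.19), Egln3 (−0.46), Ak4 (0.37), Txnip (0.56) and Ddit4 (0.42). With the DR3 agonist the difference passed for Slc2a1 (0.23), Slc16a3 (0.33), Egln3 (−0.52), Txnip (0.62) and Ddit4 (0.50). With the OX40 agonist the difference passed for Slc2a1 (0.37), Pfkl (0.21), Pfkp (0.18), Slc16a3 (0.66), Egln3 (−0.37), Txnip (0.42) and Ddit4 (0.52). Not all of these held when each library was left out in turn. Aldoa with 4-1BB was lost in 11 of 12 such fits and Pdk1 with 4-1BB in 4. Pfkl with TNFR2 was lost in 7 of 12, and Pfkl and Pfkp with OX40 in 7 and 8 of 11. Slc2a1 and Slc16a3 with DR3 were each lost in 8 of 12. Ak4, Bnip3 and Kdm3a with TNFR2, Ak4, Pfkfb3 and Pfkp with 4-1BB and Egln3 with OX40 were lost in 1 to 3 fits each.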

How the results depend on the processing

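The 17 counts of called genes stayed within 1.5 times under DESeq2, DESeq2 size factors, both other count filters and the replicate block. The replicate block changed 3 single values; same-numbered libraries correlated between −0.167 and 0.137 over 32 pairs, so the numbers were not taken to pair libraries, and the block left the DR3 difference between times at 4 genes. Fitting only the groups compared gave 7 genes in the joint test at 18 h, against 12. With the ribosomal locus transcript as a covariate the DR3 difference between times passed for 3 genes, against 5. The values of that transcript did not overlap between DR3 and controls at 18 h, so a covariate cannot separate it from the agonist there. Without the 6 libraries over 10000 CPM of it, 10 genes were called for TNFR2, 7 for DR3 and 4 for OX40 at 18 h, 7 for DR3 at 36 h, 8 in the joint test at 36 h, and the difference between times passed for 6 genes with TNFR2, 7 with 4-1BB, 3 with DR3 and 4 with OX40. The cause was not tested, and that fit has fewer libraries. With each library left out in turn, the DR3 difference passed for 3 to 5 genes, with 3 when replicate 1 of the controls at 18 h, replicate 2 of the controls at 36 h, replicate 1 or 2 of DR3 at 18 h or replicate 1 or 3 of DR3 at 36 h was left out. The OX40 difference passed for 4 genes without replicate 2 of OX40 at 18 h and for 10 without replicate 1, where the lone library is assumed to vary like the other groups. In the deposited TPM, 219 of the 585 single log2 values differed from the main fit by at least 1 SE, and 365 differed by less. The only called value with the opposite sign was that of Gpi1 in controls at 18 h against resting cells, with a log2 ratio of −0.0577 against 0.16. Low counts limit Ak4 in resting cells, Aldoc, Pfkfb4 and Vegfa.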
